A study of Mus musculus with 6 samples.

Results

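A set of 10 transcription factor genes of the eye field, hypothalamus and ventral forebrain (Rax, Six3, Six6, Vax1, Vax2, Foxd1, Otp, Sim1, Nkx2-2 and Nkx2-4) was followed in the rostral forebrain of mouse embryos lacking Fezf1 and Fezf2 and of wild-type embryos. The genes were listed by name, and every probe set annotated to 1 of these symbols alone was taken: 16 of the 34958 single-symbol probe sets, for 10 of 18194 genes. The tissue, hand-isolated forebrain lying rostral to the lateral ventricle's caudal limit, came from Fezf1-/- Fezf2-/- embryos, labelled as lacking both copies of these zinc-finger repressor genes, and from wild-type embryos, each at embryonic day 9.5 (E9.5), E10.5 or E12.5. Biotin-labelled RNA was read on Affymetrix arrays, 1 for each genotype at each age and 6 in all. The Fezf1-/- Fezf2-/- embryos are called the knockout below. The labels give neither the strain, nor the sex, nor how many embryos went into an array. With no replicate in any group, single-age differences between genotypes carry no error.

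These factors mark the most anterior and ventral neural tube. Rax, Six3 and Six6 are homeodomain factors of the eye field, the patch of anterior neural plate that forms the optic vesicles, and they stay active in the hypothalamus and pituitary anlage. Vax1 and Vax2 are related homeodomain factors of the optic stalk and ventral retina, and Foxd1 is a forkhead factor of the temporal retina and ventral diencephalon. Otp and Sim1, a homeodomain and a bHLH-PAS factor, are both needed for neuroendocrine neurons of the hypothalamus, while Nkx2-2 and Nkx2-4 are NK2 homeodomain factors of the ventral diencephalon.

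Promoter sequences are shown for the genes on which the results turn, from 250 bases before to 50 after the annotated start (RefSeq, GRCm38.p6, each 5′ to 3′ on the gene's strand). Promoters of 8 of the 10 genes were used, and Rax and Vax2 are named only. Member promoters on a chromosome that was set aside were left out, while the whole table kept that chromosome. The pair of related genes Six6 and Six3 is shown because their signals took different courses with age, Foxd1 because it stood lower in the knockout at each age, Otp because it rose with age, and Nkx2-2 for its drop in the knockout at E10.5. Capitals mark the CCAAT-box core ATTGG on either strand in Six6, Six3, Foxd1 and Otp, and the NK2-class core CACTTG on either strand in Nkx2-2. The windows lie at chr12:72939632-72939931 (plus strand) for Six6, chr17:85620584-85620883 (plus) for Six3, chr13:98353995-98354294 (plus) for Foxd1, chr13:94875386-94875685 (plus) for Otp and chr2:147186353-147186652 (minus) for Nkx2-2.
Six6: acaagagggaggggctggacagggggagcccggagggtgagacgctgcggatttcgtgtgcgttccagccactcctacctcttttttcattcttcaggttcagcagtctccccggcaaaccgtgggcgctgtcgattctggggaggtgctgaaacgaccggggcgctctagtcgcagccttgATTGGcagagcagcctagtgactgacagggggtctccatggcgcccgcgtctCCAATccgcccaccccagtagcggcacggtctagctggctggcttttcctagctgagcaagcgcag
Six3: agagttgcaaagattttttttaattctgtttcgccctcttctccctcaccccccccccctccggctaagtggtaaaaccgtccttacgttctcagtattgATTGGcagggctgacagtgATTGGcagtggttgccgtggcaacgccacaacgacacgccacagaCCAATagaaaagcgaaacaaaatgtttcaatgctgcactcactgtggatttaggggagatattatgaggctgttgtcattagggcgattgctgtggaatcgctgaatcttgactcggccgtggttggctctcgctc
Foxd1: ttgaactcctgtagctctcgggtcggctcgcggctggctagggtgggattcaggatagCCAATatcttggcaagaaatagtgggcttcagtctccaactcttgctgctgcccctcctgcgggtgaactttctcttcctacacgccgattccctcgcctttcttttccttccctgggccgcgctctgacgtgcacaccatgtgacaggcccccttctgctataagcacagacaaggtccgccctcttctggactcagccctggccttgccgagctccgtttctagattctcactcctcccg
Otp: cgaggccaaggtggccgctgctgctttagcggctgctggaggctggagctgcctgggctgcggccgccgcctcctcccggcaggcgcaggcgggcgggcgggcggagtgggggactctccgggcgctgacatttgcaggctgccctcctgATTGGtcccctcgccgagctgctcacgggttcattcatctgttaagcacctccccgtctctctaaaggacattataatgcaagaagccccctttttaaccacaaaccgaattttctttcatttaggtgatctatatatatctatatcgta
Nkx2-2: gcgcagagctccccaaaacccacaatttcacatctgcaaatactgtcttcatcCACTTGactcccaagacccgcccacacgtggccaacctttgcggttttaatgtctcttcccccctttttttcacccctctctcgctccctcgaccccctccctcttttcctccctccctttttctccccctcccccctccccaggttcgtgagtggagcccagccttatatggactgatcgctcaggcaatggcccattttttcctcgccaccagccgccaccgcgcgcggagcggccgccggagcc
ATTGG or its reverse complement CCAAT was present in 5 of the 8 promoters (Six6, Six3, Foxd1, Otp and Vax1), against 37.4% of all 32851 promoters of the table. The longer string TGATTGGC or its complement GCCAATCA, which contains ATTGG, was present in Six6 and Six3 and in none of the other 6 promoters, against 3.81% of the table. All motifs were picked after the sequences had been read. CACTTG or CAAGTG was present in Nkx2-2 alone (13.6% of the table), TATAAA or TTTATA in Sim1 alone (13.6%) and TAATTA, a palindrome bound by many homeodomains, in 0 of 8 (5.29%). A match of these letters describes the window and is not a binding site.

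The arrays differed in overall brightness, with 2% trimmed means of 74.3 to 162 in the deposited signal, so signals below are quantile-normalized. A signal of 24.01, the median of all values, serves as the mark between dim and bright. Fezf2 signal was 0.458, 0.904 and 1.66 in the knockout, against 78.9, 146 and 249 in wild type, in order of age, and Fezf1 signal was 97.7, 78.4 and 49.5 in the knockout, against 251, 143 and 174 in wild type. Both were called lower in the fit across ages that is described below. Of the 16 probe sets, 3 were above 24.01 on all 6 arrays (Six3, Vax1 and Foxd1, the brightest set of each) and 3 were below it on all 6 (both dimmer sets of Six3 and the dimmer set of Otp). For 7 genes the brightest probe set had a mean log2 value above the median of all probe sets and entered the tests (Six3, Six6, Vax1, Foxd1, Otp, Sim1 and Nkx2-2). Rax, Vax2 and Nkx2-4 did not, and they are tested only in a fit with no filter. Levels are compared only within a probe set.

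**Figure D1:**
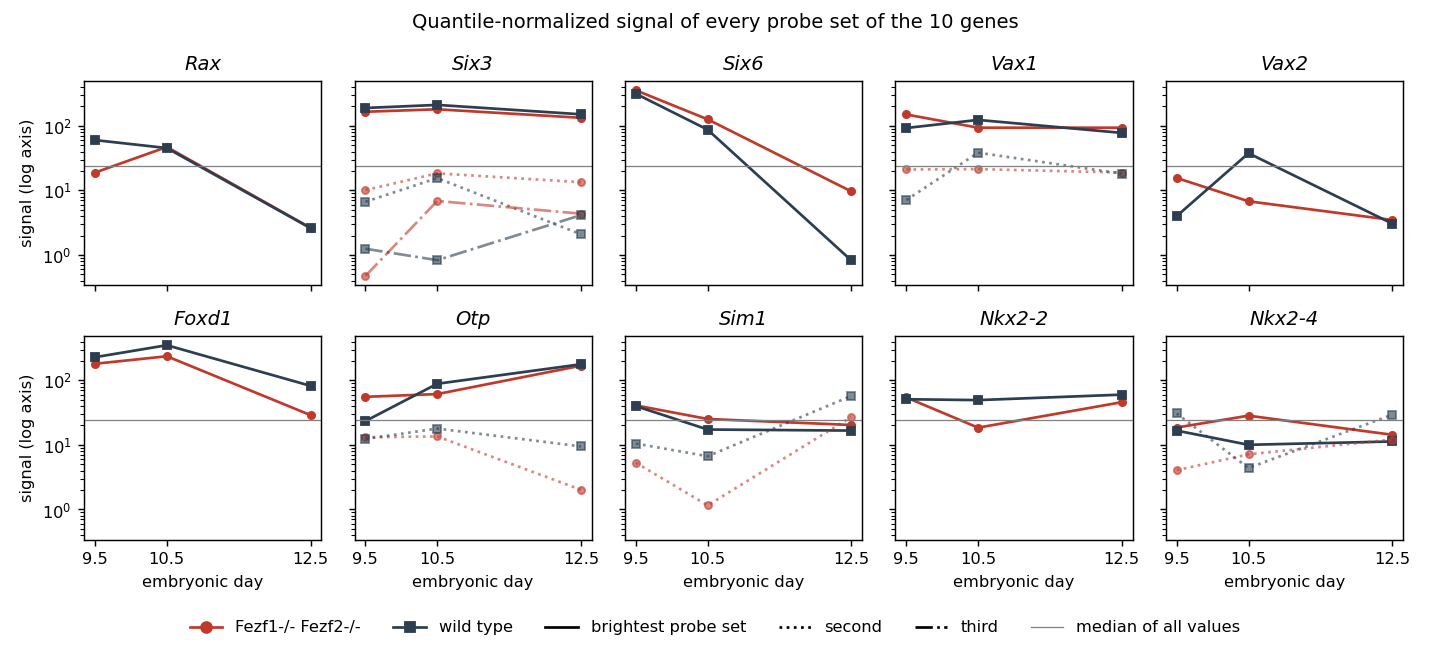
Quantile-normalized signal (log axis) of every probe set of the 10 genes against embryonic day, with 1 array per point. Red circles are Fezf1-/- Fezf2-/- and dark squares wild type. Solid lines are the brightest probe set of a gene, and dotted or dash-dotted lines its dimmer ones, and the grey line is the median of all values, 24.01. Six6 falls steeply in both genotypes, Foxd1 lies lower in the knockout at each age, and the 2 Sim1 probe sets cross.

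The eye field genes Six6 and Rax faded from the tissue between E9.5 and E12.5 in both genotypes, while Six3 did not. Six6 signal was 355, 126 and 9.64 in the knockout, against 314, 87.2 and 0.822 in wild type, always in order of age. Each step was downward in each genotype, and at E12.5 both arrays were dim. Over both genotypes Six6 fell by 1.61 ± 0.24 from E9.5 to E10.5 (limma, adjusted p = 0.00214) and the difference from E9.5 to E12.5 was -4.97 ± 0.24 (adjusted p = 8.15e-07). Here and below, differences are on the log2(signal + 6.50) scale, which understates changes of dim genes, errors are limma's moderated SE, and an age difference rests on 2 pairs, 1 per genotype. Rax, a regulator without which no eye forms, stood at 18.9, 47.0 and 2.63 in the knockout, against 60.1, 45.3 and 2.60 in wild type. Its lowest arrays were those of E12.5 in both genotypes. In a fit with no filter on dim genes Rax fell by 2.17 ± 0.43 from E9.5 to E12.5 (limma, adjusted p = 0.00433). In the same fit Vax2 changed by -0.64 and Nkx2-4 by -0.32, and neither passed (adjusted p = 0.464 and 0.560).

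Six3, a repressor of Wnt signalling in the anterior neural plate, kept a level signal beside its relative Six6. Its brightest probe set read 165, 181 and 133 in the knockout, against 189, 211 and 151 in wild type. Its range over the 6 arrays was narrow, and the lowest value in each genotype was that of E12.5. Between E9.5 and E12.5 the difference was -0.31 ± 0.13 (limma, adjusted p = 0.0623). From E10.5 to E12.5 Six3 fell by 0.44 ± 0.13 (adjusted p = 0.0175), but on the values as deposited, without scaling of the arrays, this step was 0.54 and upward. Both dimmer Six3 probe sets ranged from 0.472 to 18.4. Their changes from E9.5 to E12.5 were -0.18 and 0.55 and neither passed (limma with all probe sets, adjusted p = 0.787 and 0.266).

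Foxd1 fell between E10.5 and E12.5. Its signal was 181, 236 and 29.0 in the knockout, against 229, 350 and 82.3 in wild type. In each genotype the E10.5 array was the highest and the E12.5 array the lowest. Foxd1 fell by 1.90 ± 0.22 from E9.5 to E12.5 (limma, adjusted p = 6.72e-05), and the step from E10.5 to E12.5 was -2.39 ± 0.22 (adjusted p = 3.98e-05). Vax1 read 150, 93.6 and 93.6 in the knockout, against 92.6, 124 and 77.8 in wild type, with a change of -0.44 ± 0.23 from E9.5 to E12.5 (adjusted p = 0.123). The genotypes ran in different directions from E9.5 to E10.5, down in the knockout and up in wild type. The dimmer Vax1 probe set read 21.1, 21.4 and 18.9 in the knockout, against 7.08, 38.4 and 18.2 in wild type.

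Among the 7 tested genes, each by its brightest probe set, Otp alone was called higher from E9.5 to E12.5. Its brightest probe set read 55.6, 61.3 and 169 in the knockout, against 23.4, 88.6 and 178 in wild type. Both genotypes were highest at E12.5, with nearly the same signal there. Otp rose by 2.06 ± 0.31 from E9.5 to E12.5 (limma, adjusted p = 3.72e-04). Its second probe set stayed dim, at 13.2, 13.5 and 2.02 in the knockout, against 12.4, 17.9 and 9.49 in wild type, and did not follow (-0.72 ± 0.38, adjusted p = 0.194 with all probe sets). With the mean of both probe sets the rise did not pass (0.67, limma, adjusted p = 0.0771).

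Sim1, which acts with Otp in the same neuroendocrine lineage, gave opposite courses in its 2 probe sets. The brighter read 40.9, 25.2 and 20.4 in the knockout, against 39.9, 17.3 and 16.7 in wild type, and it fell by 0.91 ± 0.28 from E9.5 to E12.5 (limma, adjusted p = 0.0176). On values as deposited this fall did not pass (-0.32, adjusted p = 0.353). The second read 5.29, 1.16 and 27.1 in the knockout, against 10.5, 6.68 and 57.4 in wild type. It was dim at E9.5 and E10.5 and above 24.01 in both genotypes at E12.5, a rise of 1.71 ± 0.34 (limma with all probe sets, adjusted p = 0.00588). The call for Sim1 therefore depends on the probe set. Over the 6 arrays, which share age, the second Sim1 probe set had Pearson's r = 0.67 with the brightest Otp probe set and the brighter Sim1 probe set r = -0.83, given as descriptions.

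Nkx2-2 read 54.4, 18.5 and 45.9 in the knockout, against 51.0, 49.5 and 60.1 in wild type. Its E10.5 knockout array stood apart from the other 5, which lay close together. Between E9.5 and E12.5 the difference was -0.00 ± 0.30 (limma, adjusted p = 0.995). Nkx2-4 was dim in most arrays: its brighter probe set read 18.6, 28.4 and 14.4 in the knockout, against 16.7, 10.04 and 11.3 in wild type. Vax2 read 15.6, 6.78 and 3.48 in the knockout, against 3.998, 37.7 and 3.06 in wild type, above 24.01 on 1 array of 6.

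In all, 4 of the 7 tested genes changed from E9.5 to E12.5, 3 lower (Six6, Foxd1 and Sim1) and 1 higher (Otp). Among all 11097 tested genes 62.7% were called in this contrast, 37% lower and 25.7% higher, and 4 of 7 is close to that share. The median change was -0.44 over the 7 genes and -0.15 over all tested genes. From E9.5 to E10.5 1 of 7 was called (Six6, lower), against 28.6% of all tested genes (13.7% higher and 14.9% lower), and from E10.5 to E12.5 4 of 7 (Six3, Six6 and Foxd1 lower, Otp higher), against 50.1% (20.1% higher and 30% lower).

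Within a genotype the steps were counted past 2-fold by the rule used for single ages below, with no test. From E9.5 to E10.5 the genes past it were Rax, Six6 and Nkx2-2 in the knockout (3 of 10, against 3.55% of all genes) and Otp, Vax2 and Six6 in wild type (3 of 10, against 6.24%). Otp changed by 0.13 in the knockout and by 1.67 in wild type, and Rax changed by 1.08 in the knockout, against -0.36 in wild type. From E10.5 to E12.5 they were Rax, Six6, Foxd1, Otp and Nkx2-2 in the knockout (5 of 10, against 12.4%) and Rax, Six6, Foxd1 and Vax2 in wild type (4 of 10, against 11.1%). Six6 changed in that step by -3.04 in the knockout, against -3.68 in wild type, and Foxd1 by -2.78 in the knockout, against -2.01 in wild type. Whether the steps differ between genotypes was not tested, since no degrees of freedom are left.

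**Figure D2:**
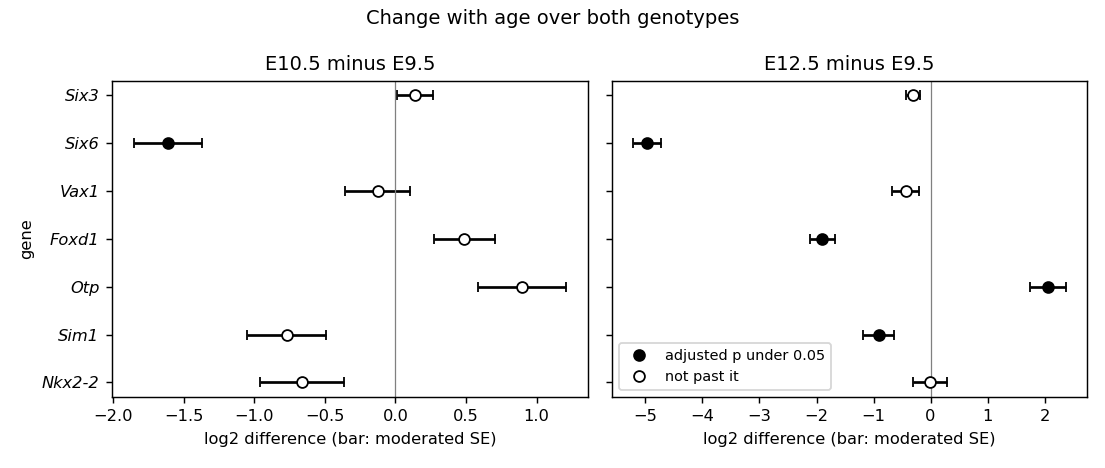
Change of the 7 tested genes from E9.5 to E10.5 (left) and from E9.5 to E12.5 (right) on the log2 scale, over both genotypes. Points are limma estimates, bars the moderated SE, and filled points passed an adjusted p of 0.05. Six6 stands farthest to the left in both panels, and Otp is the tested gene on the right by E12.5.

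Markers of tissue around the brain also fell with age. The 8 surface ectoderm markers summed to a signal of 1674, 1550 and 137 in the knockout, against 1434, 1221 and 154 in wild type, and 7 of 8 were called lower from E9.5 to E12.5, with Krt5 the exception. The 6 head mesenchyme markers summed to 3795, 4045 and 1118 in the knockout, against 2861, 3776 and 1578 in wild type, and 5 of 6 were called lower. Such sums weigh bright genes most, and Col3a1 alone read 1768, 2061 and 870 in the knockout, against 1264, 2140 and 1239 in wild type. Among all tested genes 37% were called lower from E9.5 to E12.5. Cdh1, an epithelial cadherin among these markers, had a course close to that of Six6, as given below. The 6 measured telencephalon markers summed to 934, 761 and 2417 in the knockout, against 1045, 1454 and 2626 in wild type. In bulk tissue, fewer cells of a type and less RNA per cell cannot be told apart, and the part of these shifts in the falls of Six6, Rax and Foxd1 was not tested.

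Markers of formed eye tissue were dim in part. All 8 lens markers were under the filter: the crystallin gene Cryaa lay at 0.872 to 1.11 in the knockout, against 1.17 to 3.34 in wild type, while Cryab read 64.8, 44.2 and 0.681 in the knockout, against 38.4, 61.1 and 0.694 in wild type. The lens list summed to 75.0 to 126 in the knockout, against 76.5 to 135 in wild type. The 2 measured retina markers, Atoh7 and Vsx1, summed to 17.7 to 28.1 in the knockout, against 20.5 to 21.5 in wild type. The retinal pigment epithelium list (6 genes) summed to 255, 229 and 123 in the knockout, against 189, 331 and 135 in wild type. Of its 6 genes 3 passed the filter (Mitf, Pmel and Dct), and Mlana, at 0.617 to 2.01, Tyr and Tyrp1 did not. Dct, a melanin synthesis enzyme, read 46.0, 52.7 and 74.2 in the knockout, against 9.43, 70.5 and 74.4 in wild type, and rose from E9.5 to E12.5 (1.48, limma, adjusted p = 0.0130). Pmel, a melanosome protein, read 34.3, 58.8 and 10.9 in the knockout, against 20.4, 147 and 11.99 in wild type. Mitf read 154, 79.9 and 19.3 in the knockout, against 145, 73.7 and 29.0 in wild type. From E9.5 to E12.5 Mitf fell by 2.36 (limma, adjusted p = 1.49e-05). Over the same ages Pmel changed by -0.88 and did not pass (limma, adjusted p = 0.0748). Dct at E9.5 (1.72) and Pmel at E10.5 (-1.24) were past the fold between genotypes. The hypothalamic regulator Nkx2-1 was dim on every array, at 2.44, 3.78 and 10.2 in the knockout, against 9.87, 1.16 and 15.7 in wild type. All 7 caudal neural tube markers were under the filter, and the 6 measured pituitary markers summed to 109 to 190 in the knockout, against 97.6 to 182 in wild type.

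**Figure D3:**
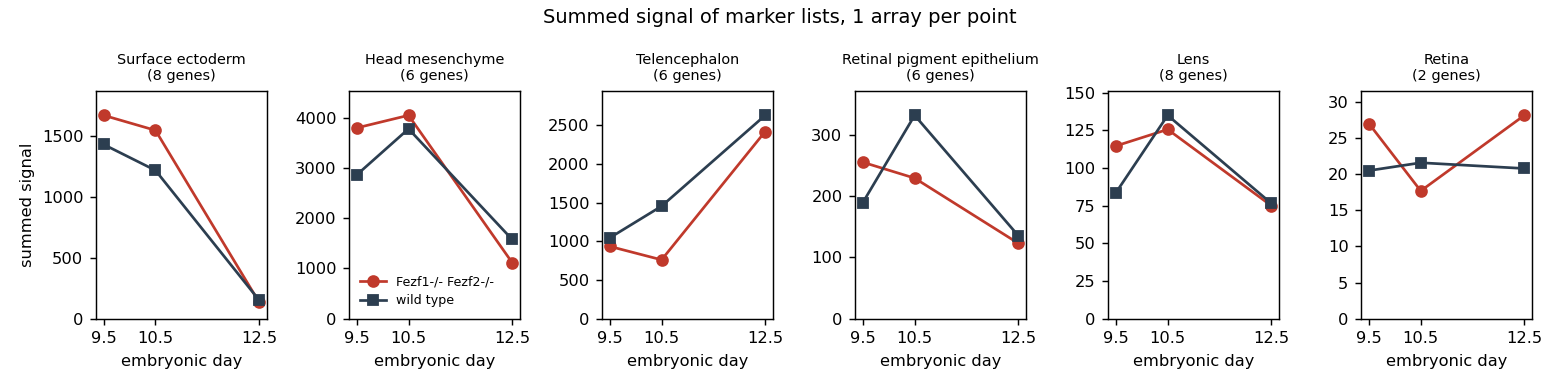
Summed quantile-normalized signal (linear axis from 0) of 6 marker lists against embryonic day, 1 array per point, with Fezf1-/- Fezf2-/- as red circles and wild type as dark squares. The surface ectoderm sum falls to 137 in the knockout, against 154 in wild type at E12.5, and the telencephalon sum at E10.5 is 761 in the knockout, against 1454 in wild type.

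Between genotypes, none of the 7 tested genes passed the test across ages. By the brightest probe sets, Foxd1 was lower and Six6 higher in the knockout at each age, and the other tested genes differed by less or changed sign. The second Sim1 probe set was also lower in the knockout at each age, with a mean of -0.75, as given below. Over the 3 ages 0 of 7 passed (limma with age as a block, adjusted p from 0.759 to 0.999), with 2 of 7 at an unadjusted p under 0.05, Foxd1 and Six6. Of all 11097 tested genes 0.0721% were called (0.018% higher and 0.0541% lower), and 521 had an unadjusted p under 0.05. The median mean difference was 0.16 over the 7 genes and 0.01 over all tested genes.

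With the Foxd1 signals given above, its differences were -0.33, -0.56 and -1.32 in order of age, the last a 2.50-fold difference after the pseudocount is added. The mean was -0.74 ± 0.18 over 3 pairs (limma, adjusted p = 0.759). Without the E9.5 pair the mean was -0.94 and passed (limma, adjusted p = 0.0101). With the E12.5 pair left out it was -0.44 (limma, adjusted p = 0.995). Each of these fits leaves out a pair and has fewer residual degrees of freedom than the fit on all ages. The ranges of genes called with an age left out are given in the last section. At E12.5 the head mesenchyme markers were lower in the knockout too, 6 of 6 tested, with a median of -0.59. They were higher in the knockout in 6 of 6 at E9.5 and in 4 of 6 at E10.5, with medians of 0.35 and 0.11. The part of these markers in the Foxd1 difference was not tested.

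Six6 was higher in the knockout at each age, by 0.17, 0.50 and 1.14, and the mean was 0.60 ± 0.20 over 3 pairs (limma, adjusted p = 0.999). The value at E12.5 comes from signals of 9.64 in the knockout, against 0.822 in wild type, both dim. At E9.5 and E10.5, where Six6 was bright, the differences were the smaller ones. Surface ectoderm markers were higher in the knockout in 7 of 8 at E9.5 and in 7 of 8 at E10.5, with medians of 0.10 and 0.35. At E12.5, where the Six6 difference was largest, 4 of 8 were higher, with a median of -0.03. The part of these markers in the Six6 difference was not tested.

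The brightest Six3 probe set was slightly lower in the knockout at each age, by -0.19, -0.22 and -0.17, with a mean of -0.19 ± 0.10 (limma, adjusted p = 0.999). Sim1 was again split. Its brighter probe set gave 0.03, 0.41 and 0.21, a mean of 0.22 ± 0.23 (adjusted p = 0.999), and its second gave -0.53, -0.78 and -0.93, a mean of -0.75 ± 0.28 (limma with all probe sets, adjusted p = 0.978). Otp (mean 0.16 ± 0.25), Vax1 (0.18 ± 0.19) and Nkx2-2 (-0.48 ± 0.24) changed sign between ages and had an adjusted p of 0.999 each.

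Differences at a single age were counted past 2-fold with the higher signal above 24.01, with no test. At E9.5 2 of the 10 genes were past it, Otp higher (55.6 in the knockout, 23.4 in wild type, 1.05 on the log2 scale) and Rax lower (18.9 in the knockout, 60.1 in wild type, -1.39), against 1.62% of all 18194 genes. At E10.5 3 of 10 were past it, Nkx2-4 higher (28.4 in the knockout, 10.04 in wild type, 1.08), Nkx2-2 lower (18.5 in the knockout, 49.5 in wild type, -1.16) and Vax2 lower (6.78 in the knockout, 37.7 in wild type, -1.73), against 1.91% of all genes. On that E10.5 pair 5 of 5 tested telencephalon markers were lower in the knockout too, with a median of -1.06, Emx1 at 13.9 in the knockout, against 73.9 in wild type, and their part in the Nkx2-2 and Vax2 differences was not tested. At E12.5 Foxd1 alone was past it, against 0.555%. On values as deposited 1 of 10 was past it at E9.5 and 0 of 10 at E10.5.

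All of these genes other than Foxd1 had modest signals, and dim probe sets scatter more. Among single-symbol probe sets with a mean signal between 24 and 100, 3.78%, 3.75% and 1.52% differed 2-fold or more in order of age, and among those with a mean under 24, 12.3%, 16.6% and 6.71% did. Of the brightest class, with a mean over 100, 0.368%, 0.404% and 0.306% did. These shares were counted without requiring the higher signal to be above 24.01, so they are not on the rule of the counts above. Foxd1, Six3, Six6 and Vax1 belong to the brightest class by their brightest probe set, and Rax, Vax2 and Nkx2-4 do not. The second Nkx2-4 probe set read 4.06, 7.16 and 12.1 in the knockout, against 30.7, 4.39 and 29.4 in wild type, lower at E9.5 (-1.82) and E12.5 (-0.95), where the brighter probe set gave 0.11 and 0.23. The median difference over the 10 genes was 0.10, -0.30 and 0.03 in order of age, and over all genes 0.01, -0.01 and 0.01.

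**Figure D4:**
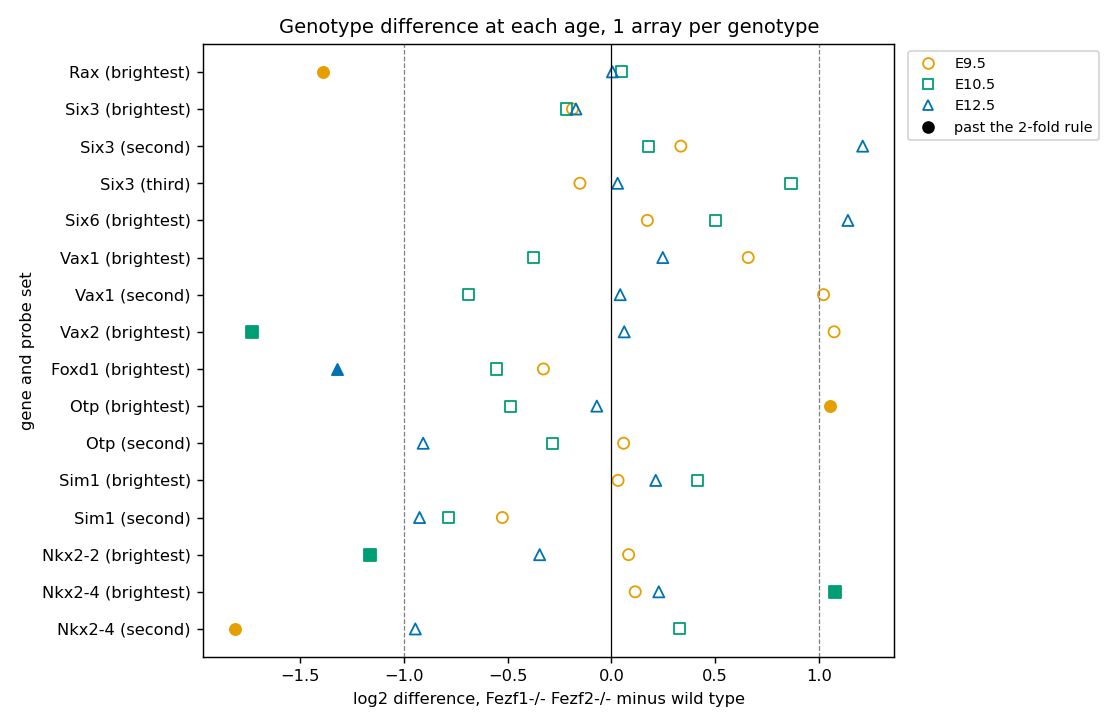
Difference between Fezf1-/- Fezf2-/- and wild type on the log2 scale for each of the 16 probe sets at E9.5 (circles), E10.5 (squares) and E12.5 (triangles), 1 array per genotype and age. Dashed lines mark 2-fold and filled symbols passed the 2-fold rule. Foxd1 lies left of 0 and Six6 right of 0 at all 3 ages, while Otp, Vax1 and Vax2 fall on both sides. The brightest and second Six3 probe sets, both Sim1 probe sets and the brightest Nkx2-4 probe set also stay on 1 side.

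Other eye field and optic vesicle genes changed with age, and none passed for genotype. Of 18 measured genes of this list 14 were tested, and 0 passed for genotype. The 4 with the largest mean difference were Fgf15, a growth factor of the ventral diencephalon and retina (0.71 ± 0.15, adjusted p = 0.426), the eye field factor Lhx2 (-0.64 ± 0.14, adjusted p = 0.481), Mab21l1 (0.53 ± 0.16) and Tbx2 (0.43 ± 0.19), the last 2 with an adjusted p of 0.999. Fgf15 was higher at each age, and at E12.5 it was past the fold (1.18), with 410 in the knockout, against 177 in wild type. Aldh1a3, a retinoic acid synthesising enzyme of the optic vesicle, was higher past the fold at E10.5, with 482 in the knockout, against 225 in wild type, and Lhx2 was lower past it, with 364 in the knockout, against 766 in wild type. The list's median difference was 0.13, 0.23 and -0.02 in order of age, against 0.01, -0.01 and 0.02 over all tested genes.

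From E9.5 to E12.5 7 of the 14 fell and 6 rose (limma), where 37% of all tested genes were called lower and 25.7% higher. Named after their values were seen, Aldh1a3 changed by -4.91, the T-box factors Tbx3 and Tbx2 of the dorsal retina by -3.69 and -2.86, and Mitf, the regulator of retinal pigment cells, by -2.36 (limma, adjusted p = 1.67e-06, 1.24e-05, 8.51e-06 and 1.49e-05). The 6 that rose were Lhx2 (1.60), Efnb2 (1.08), Mab21l1 (1.04), Sox2 (0.70), Fgf15 (0.52) and Pax6 (0.43). Their limma adjusted p was 4.26e-05, 3.37e-05, 0.00152, 5.95e-04, 0.0282 and 0.0170, in that order.

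Of 30 measured genes of the hypothalamus and ventral diencephalon list, 15 were tested and 0 passed for genotype. The 4 with the largest mean difference were Dbx1, Gli1, Nkx2-9 and Shh. Dbx1, a homeodomain factor, gave 0.89 ± 0.29, and Gli1, a target of Sonic hedgehog signalling, gave 0.39 ± 0.18. Nkx2-9 gave -0.38 ± 0.26 and Shh itself 0.36 ± 0.13, and each of the 4 had a limma adjusted p of 0.999. Dbx1 was past the fold at E12.5, with 519 in the knockout, against 131 in wild type (1.93), and Nkx2-9 too, with 7.43 in the knockout, against 24.5 in wild type (-1.15). At E12.5 13 of 15 tested genes were higher in the knockout, with a median of 0.30 against 0.02 over all tested genes; at E9.5 10 of 15 and at E10.5 6 of 15 were. Over both genotypes 6 of the 15 rose with age and 3 fell from E9.5 to E12.5 (limma), and 9 of 15 is close to the 62.7% called among all tested genes.

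The genes whose course over the 6 arrays lay closest to each tested gene were found from the distance between log2 profiles, each centred on its mean. For Six6 these were Sall4, a zinc-finger factor of early embryonic cells, and Cdh1 (distance 0.77 and 1.16, r = 0.99 and 0.97). Sall4 read 779, 413 and 31.3 in the knockout, against 831, 269 and 24.3 in wild type. For Foxd1 they were Cldn3, a tight junction protein of epithelia (0.64, r = 0.97), and Ddr2, a collagen receptor (0.82, r = 0.96). Foxd1 and Cldn3 shared the low E12.5 values.

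For Otp the nearest were Stk25 and Nes, the intermediate filament gene of neural progenitors (0.34 and 0.44, r = 0.99 and 0.98). For Nkx2-2 they were Adap1 and the cortical factor Emx2 (0.28 and 0.31, both r = 0.97). Emx2 read 407, 183 and 451 in the knockout, against 415, 395 and 556 in wild type, so that it shared with Nkx2-2 the low E10.5 knockout array. For Six3 they were Ubac1 and Dmac2 (0.11 and 0.12), for Vax1 2610035D17Rik and Septin1 (0.25 and 0.27), and for Sim1 Tmtc3 and Ndc1 (0.15 and 0.17). These matches are descriptions over 6 arrays that share age and genotype.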

How the data were processed

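Rostral forebrain RNA of Fezf1-/- Fezf2-/- and wild-type embryos was measured at 3 ages, with 1 array per genotype and age. The deposited intensity of each probe set is linear, and MAS5 is the tool named in the submitters' processing notes. Its version and scaling are not stated there, and the background was not corrected again. The number of arrays limits the precision. For the tests, arrays were quantile-normalized and log2(signal + 6.50) was taken, with a pseudocount at the lower quartile of the values. Probe sets with 1 symbol in the platform annotation (34958; 932 name several and 9211 none listed) were used, and 34754 matched the RefSeq gene table of GRCm38.p6, the 16 probe sets of the 10 genes among them. A gene takes its brightest probe set. Genes with a mean log2 value above the median of all probe sets (11097 of 18194) were fitted with limma 3.58.1 in R 4.3.3 (trend in the variance), on all 6 arrays with genotype and age as terms, which leaves 2 residual degrees of freedom, with Benjamini-Hochberg adjustment over the 11097 genes (threshold 0.05). Nothing says that arrays come from separate litters, so the p-values reflect the spread of these arrays alone. The interaction of genotype and age leaves no degrees of freedom and was not tested. The fit was tested on simulated data. Alternatives covered scaling, pseudocount, probe set, filter, variance trend, blocks and left-out ages. The members, gene lists, naming rule (all 10 genes; per context list the 4 largest mean and 2 largest single-age differences; the 2 nearest profiles per tested gene) and tests were chosen with earlier results of these data known.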

Additional observations from a re-analysis of the deposited data

Results flagged for a closer look

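Some genotype differences past the fold at 1 age had the opposite sign at another age in the same probe set. The difference between ages was not tested, since each rests on 1 array per genotype and age. Rax differed by -1.39 at E9.5 and by 0.05 and 0.00 at E10.5 and E12.5. Vax2 differed by -1.73 at E10.5 and by 1.07 at E9.5, where both arrays were dim, and by 0.06 at E12.5. Otp differed by 1.05 at E9.5 and by -0.49 and -0.07 at the later ages. Nkx2-2 differed by -1.16 at E10.5, by 0.08 at E9.5 and by -0.35 at E12.5. The second Nkx2-4 probe set differed by -1.82 at E9.5, by 0.33 at E10.5 and by -0.95 at E12.5.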

How the results depend on the processing

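The falls of Six6 and Foxd1 from E9.5 and from E10.5 to E12.5 kept direction and call under each alternative run. Each of these genes has 1 probe set alone. The runs with the second probe set or the mean of probe sets therefore could not change their estimates. Otp lost its rise to E12.5 with the mean of its probe sets (0.67 from E9.5, adjusted p = 0.0771). The Sim1 fall from E9.5 to E12.5 lost its call on values as deposited (limma, adjusted p = 0.353) and with a common trimmed mean (0.0549). Otp also lost its rise from E10.5 without a variance trend (limma, adjusted p = 0.0551) and with the mean of probe sets (adjusted p = 0.761), and the Six3 fall from E10.5 lost its call with a trimmed mean (adjusted p = 0.0827) and with the mean of probe sets (adjusted p = 0.205). Among tested single-gene values 257 kept direction and call, 16 reversed, 7 gained and 7 lost a call. Among untested ones 377 kept their sign and 43 changed it. In none of these cases was the cause tested. For genotype, 2 genes were higher and 6 lower. Higher genes numbered 16 on values as deposited, 1 with a trimmed mean, with a pseudocount of 1 and with all probe sets, and 0 with the second probe set, the mean of probe sets, no filter, no variance trend or no age block. Lower genes numbered 1 with a trimmed mean and with no filter, 2 with the mean of probe sets, and 0 with a pseudocount of 1, no variance trend (544 genes at an unadjusted limma p under 0.05 in either direction) or no age block (24 genes). Leaving out 1 age at a time gave 0 to 15 higher genes, 0 to 36 lower genes and 0 to 1 of the 7 (Foxd1, without the E9.5 pair). From E9.5 to E10.5 the 3178 called genes became 5871 as deposited, 2017 with the mean of probe sets, 1518 without a trend and 5843 with all probe sets, and the 1 member called became 3 as deposited and 2 with a pseudocount of 32 or without a trend. From E10.5 to E12.5 the 5564 genes became 8883 as deposited, 9238 with all probe sets, 4165 with the second probe set and 4262 with the mean. The 4 members became 7 as deposited and 2 with the second probe set or the mean. From E9.5 to E12.5 the 6960 genes became 11606 with all probe sets, 5253 with the second probe set and 5358 with the mean. The 4 members became 2 with the second probe set or the mean. Fewer members passed the filter in these runs. With the second probe set only Six6, Foxd1 and Nkx2-2 were tested, and with the mean all of the 7 but Sim1. Without the E10.5 pair, chosen after seeing the data, 7109 genes and 4 members were called from E9.5 to E12.5. Members past the fold at E9.5, 2 in number, became 1 as deposited, with a trimmed mean or with the mean of probe sets and 0 with a pseudocount of 32. At E10.5 the 3 became 0 as deposited and 0 with a pseudocount of 32. At E12.5 the 1 became 0 with a pseudocount of 32 and 2 with no floor. Values as deposited reversed Six3 (-0.23 from E9.5 to E10.5, 0.54 from E10.5 to E12.5, 0.31 from E9.5 to E12.5), Sim1 (0.72) and Vax1 (0.75) from E10.5 to E12.5, and Vax1 (0.26) and Nkx2-2 (0.75) from E9.5 to E12.5. A trimmed mean reversed Sim1 from E10.5 to E12.5 (0.0830) and Nkx2-2 from E9.5 to E12.5 (0.35), and a pseudocount of 32 Nkx2-2 over the same ages (3.523e-04). The mean of probe sets reversed the genotype differences of Otp (-0.11) and Six3 (0.21), Vax1 from E9.5 to E10.5 (0.37) and Six3 from E9.5 to E12.5 (0.0218). The second Otp probe set reversed its knockout step from E10.5 to E12.5 (-1.23). Leaving out 1 age, the genotype difference ran from -0.28 to 0.49 for Otp and from -0.0651 to 0.45 for Vax1, both lowest without the E9.5 pair. No paired analysis was possible because the labels give no replicate numbers, other than the pairing by age that the genotype fit already holds as a block. Dim signals limit Rax, Vax2, Nkx2-4 and the second probe sets.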
